A study of Mus musculus with 9 samples.

Results

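Spp1 encodes osteopontin, a secreted matrix protein. It is 1 of 8106 genes that could be named on a mouse expression array of 46657 probes. Only 1 probe, found through the number in its code, is taken to read it. That this number is an NCBI gene number was inferred, as described at the end. The sequence of the probe is not in the sources used here, so its specificity was not checked. The gene was chosen by its measured signal in the groups described here, so its levels and differences are given as a description, with no test. Bead arrays, which read each probe from many small beads at once, measured RNA from whole hearts of FVB mice aged 14 days in 3 groups of 3 arrays. Control hearts are given no transgene in the labels. N-line hearts carried a transgene of the normal form of a membrane transport protein, and K-line hearts a transgene of a constitutively active mutant of the same protein. The promoter that drives the transgenes and the number of founders per line are not given in the sources used here. Nor do the labels tie each array to an animal of its own. The p-values below therefore rest on the spread among these samples, part of which may be technical.

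Osteopontin is an acidic phosphoprotein of bone matrix, milk and urine, and it is also secreted by activated macrophages and by stressed muscle. It is a ligand of integrins, which recognise its RGD sequence, and of CD44, and it acts in adhesion, migration and matrix assembly. Healthy heart muscle makes little of it. It is known to rise in the heart with pressure overload, infarction and inflammation.

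The stretch upstream of the Spp1 start site is shown because several regulators known to act on this gene are among the genes measured below. It lies at chr5:104434861-104435110 on the plus strand of GRCm38.p6, from RefSeq, and ends 1 base before the start site. Capitals mark every match, on either strand, to the motifs searched.

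Spp1 promoter: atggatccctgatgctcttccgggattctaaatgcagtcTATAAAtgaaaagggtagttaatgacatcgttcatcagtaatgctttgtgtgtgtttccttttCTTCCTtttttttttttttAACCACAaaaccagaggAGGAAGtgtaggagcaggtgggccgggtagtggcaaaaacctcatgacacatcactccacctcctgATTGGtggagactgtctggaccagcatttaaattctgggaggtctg

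The RUNX motif AACCACA occurred once, at -129 from the start site, and 5.27% of the 32851 mouse promoters of this table hold it. The ETS motif AGGAAG occurred at -112 and, on the reverse strand, at -148, and 35.4% of promoters hold it. CCAAT was found on the reverse strand at -46 (37.4% of promoters), and TATAAA at -211 (13.6%), far upstream of the usual place of a TATA box. The AP-1 motif TGANTCA (7.81% of promoters) and the E-box CACGTG (7.15%) had no match in the window, which was searched to 50 bases past the start site. No matches overlapped. A match of letters is a description of the window and does not show that a factor binds.

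The arrays were of like quality, with between 38.4% and 40.8% of probes detected, meaning a detection p-value under 0.05. All 3 K-line arrays stood apart in several ways. They shared a slide, which held no other array of this series, and their raw values were deposited apart from those of the other 6 arrays. An effect of the slide, or of anything else these 3 arrays shared, and one of the K-line transgene thus cannot be told apart. They are labelled male, yet Xist, which is transcribed from the inactive X chromosome of females, was detected on all 3 of them and on none of the other 6 arrays. The Y-linked genes Kdm5d, Ddx3y and Eif2s3y were detected on no K-line array. The 3 control and 3 N-line arrays shared the other slide. Markers of cardiomyocytes were bright in every group, with summed intensities of 25877 to 27851 in control, 26669 to 29023 in N-line and 31848 to 33971 in K-line arrays. The 4 atrial and conduction markers summed to 11708 to 13179 in control and 13805 to 14452 in N-line arrays but to 620 to 809 in K-line arrays. Most of that sum is Myl7 on control and N-line arrays, but not on K-line arrays. The other 3 markers summed to 1057 to 1247 in control, 1432 to 1742 in N-line and 525 to 788 in K-line arrays. These 3-marker sums still hold the offset of 16 added to each gene in processing, which the 4-marker sums do not. The 3-marker sums thus compare the groups with each other and cannot be subtracted from the 4-marker sums. The part of sex, slide and atrial tissue in the K-line values of Spp1 was not tested.

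In control hearts the Spp1 probe gave raw intensities of 56.7, 48.9 and 52.7. These are no brighter than empty probes. The detection p-values were 0.301, 0.412 and 0.185, and between 33.4% and 47.7% of all probes on the array were dimmer. Intervals of 95% from the spread between beads (50.5 to 62.9, 44.2 to 53.6 and 44.4 to 61.0) overlapped for each pair of control arrays.

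In N-line hearts the raw intensities were 111.9, 218.0 and 177.4 on arrays 2, 3 and 4. The Spp1 probe was thus above background on every N-line array, though in a dim range. The detection p-values were 0.0044, 0 and 0.0006, and the signal was 1.81, 3.50 and 2.71 times the lowest detected signal on the same array. Between 75.6% and 83.2% of probes were dimmer. Bead intervals of array 2 (97.8 to 126.0) lay below those of array 3 (187.8 to 248.2) and array 4 (160.7 to 194.1), which overlapped each other.

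In K-line hearts the raw intensities were 2698.1, 3898.1 and 3980.9 on arrays 3, 5 and 6. This places the Spp1 probe among the brightest on the array, at ranks 1085, 944 and 751 of 46657. The signal was 42.0 to 59.8 times the lowest detected signal, and far under the brightest probes, which read from 33627 to 41859 over the 9 arrays. Array 3 was lower than both others by the bead intervals (2456 to 2941, against 3620 to 4176 and 3667 to 4295). None of the 3 groups overlapped in raw signal, with means of 52.8 ± 3.90 in control, 169.1 ± 53.5 in N-line and 3525.7 ± 718 in K-line hearts (SD, n = 3).

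**Figure D1:**
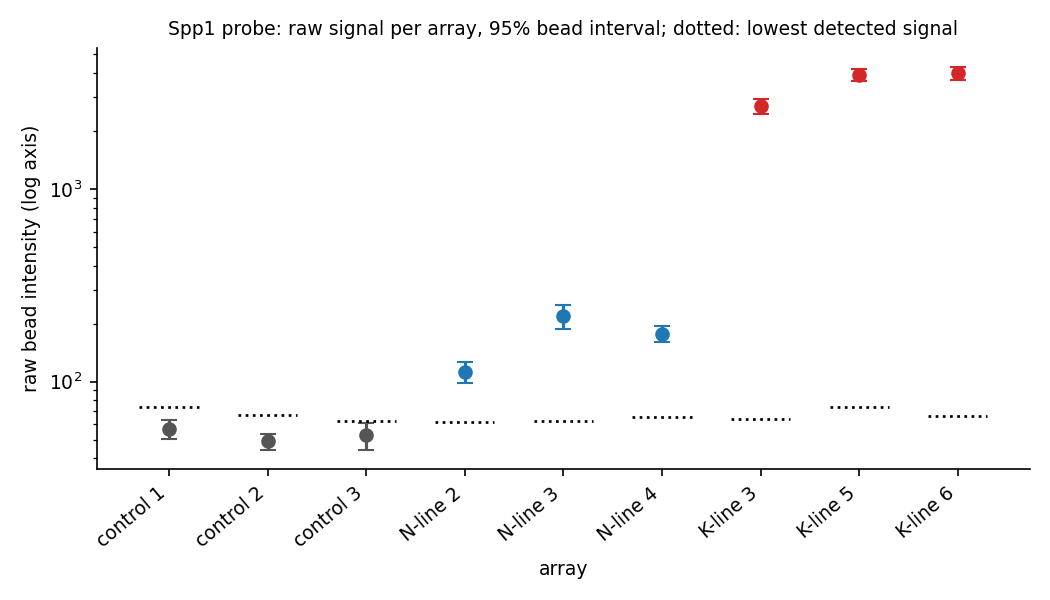
Raw intensity of the Spp1 probe on each array (log axis), with 95% intervals from the beads of that array, and the lowest detected signal of each array as a dotted line. The 3 control arrays lie below their lines, the 3 N-line arrays between 111.9 and 218.0, and the 3 K-line arrays between 2698.1 and 3980.9.

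Each value rests on 21 to 44 beads. The coefficient of variation between beads of the Spp1 probe was 28.9% to 37.0% on control arrays, 27.2% to 39.4% on N-line and 18.6% to 26.7% on K-line arrays. Probes of like brightness had medians of 29.5% to 30.4%, 26.9% to 29.5% and 18.4% to 20.0% on the same arrays, so the beads of this probe agreed about as well as, or somewhat less well than, those of others.

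After background correction and quantile normalization the log2 levels of Spp1 were 4.70, 4.64 and 4.79 in control hearts. In N-line hearts they were 6.50, 7.69 and 7.13 on arrays 2, 3 and 4, and in K-line hearts 11.44, 11.63 and 11.94 on arrays 3, 5 and 6. The order was control, N-line, K-line with no overlap, and the gaps between the nearest arrays of neighbouring groups, 1.71 and 3.74, exceeded the range within any group. The group means were 4.71 ± 0.07, 7.11 ± 0.60 and 11.67 ± 0.25 (SD, n = 3).

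Spp1 was 6.96 higher on the log2 scale in K-line than in control hearts (standard error 0.24, n = 3 per group), and since it was below background in all controls this is given as at least 91.7-fold. It was the largest difference upward among 19692 tested probes, with the next at 5.78. In N-line hearts Spp1 was 2.40 higher than in control hearts (standard error 0.24), at least 3.89-fold. With the offset of 16 it ranked 2 among all probes, and its rank ran from 1 to 6 over the other settings and with single arrays left out (6 without N-line 3). Both bounds hold for this offset only. With no background correction the fitted differences from control were 48.9-fold in K-line and 2.8-fold in N-line hearts. K-line hearts were 4.56 above N-line hearts (standard error 0.24), a 23.6-fold difference that ranked 3. Both comparisons with control share the same 3 control arrays. Since whole hearts were used, more cells that express Spp1 and more Spp1 RNA per cell cannot be told apart.

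The spread of Spp1 between N-line arrays was wide for its level. Its SD of 0.60 compares with a median of 0.14 among 1479 probes of like level in that group, and 99.5% of those had a smaller SD. In K-line hearts the SD of 0.25 compares with a median of 0.12 among 339 probes of like level. The control SD of 0.07 describes background and not Spp1 RNA.

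The size of the differences from control, unlike their direction, depends on how background is treated, because the controls hold no measurable Spp1. The N-line difference was 2.40 with the offset of 16 added before taking log2, 1.53 with an offset of 50, 1.49 with no background correction and 3.46 with an offset of 1. The K-line difference ranged from 5.61 to 8.19 over the same settings. The difference of K-line from N-line hearts, where both groups were detected, moved less, from 4.12 to 4.95 over these settings, the other scalings and the authors' own values.

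**Figure D2:**
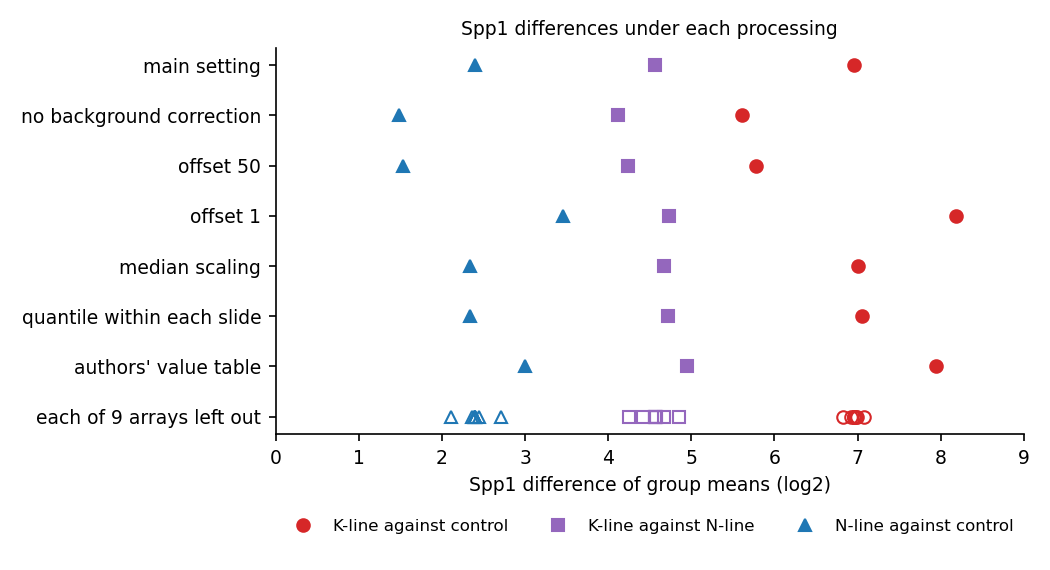
Difference of Spp1 group means on the log2 scale (horizontal axis) under each way of processing the arrays, with open symbols for the fits that leave out 1 of the 9 arrays. All differences stay above 0, and those from control range from 1.49 to 3.46 in N-line and from 5.61 to 8.19 in K-line hearts.

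The genes that surround osteopontin in its pathway were set out in 6 lists by role. These lists, and the marker lists further below, were drawn up with earlier results of these data known, so their counts are a description. Of 148 genes, 56 had a named probe and 43 of those were bright enough to test, so each list is seen only in part. In K-line against control hearts 18 of the 43 rose and 2 fell at an adjusted p under 0.05, with a median log2 difference of 0.28. Over all tested probes 24.3% were called, 12% higher and 12.4% lower, with a median of -0.01. Over all named genes, taken like the lists by their brightest probe, 25.7% were called, 13.4% higher and 12.3% lower. Of the probes called in K-line hearts 49.2% were higher, but that share was 70.5% with median scaling, 81.0% with each slide normalized alone and 84.7% in the authors' values. These 3 scalings bring the median of all probes to 0.09, 0.15 and 0.23. The median of the 43 genes relative to all probes was 0.28 in the setting used here and 0.31 to 0.32 under these scalings, with 22 to 27 genes risen and 0 fallen. Of the 43, Mmp12, Runx1, Tgfbr2 and Thbs1 reached the test only with the K-line arrays, which favours a rise in K-line hearts. Tgfbr2 was detected on 2 N-line arrays and 1 K-line array, so its entry favours a rise in N-line hearts too. Among the other 39 genes 15 rose and 2 fell, with a median of 0.23.

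Among the receptors Itgb5, the beta subunit of the vitronectin receptor alpha-v beta-5 that also binds osteopontin, rose by 0.66 (standard error 0.12, adjusted p 0.00253). Its log2 levels were 9.80, 9.66 and 9.68 in control, 9.72, 9.75 and 9.68 in N-line and 10.14, 10.36 and 10.61 in K-line arrays, so that only the K-line group stood apart. Itgav, the alpha-v subunit, differed by 0.05 (standard error 0.19, adjusted p 0.865). The probes of Cd44 and Itga4 were detected on 0 arrays, and the other 7 receptor genes had no named probe.

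In the list of osteopontin relatives and partner matrix proteins 4 of 7 rose in K-line hearts and none fell. The shares over all named genes were 13.4% called higher and 12.3% lower. Gpnmb, a transmembrane glycoprotein with an RGD sequence that is abundant in lipid-laden macrophages, had log2 levels of 4.87, 4.76 and 5.12 in control, 5.34, 5.11 and 5.15 in N-line and 9.04, 9.31 and 9.25 in K-line arrays. It was detected on 1 of 3 control and all N-line and K-line arrays, and its rise in K-line hearts was 4.28 (standard error 0.12, adjusted p 7.87e-09). Thbs1 (thrombospondin 1), a matricellular protein, was detected on the 3 K-line arrays alone and entered the test through them. It was 1.25 higher in K-line hearts, at least 2.03-fold (adjusted p 5.99e-04), and without it 3 of 6 genes rose. Ccn1, an integrin ligand, rose by 1.12 (adjusted p 0.00113), and Postn (periostin), made by activated fibroblasts, by 1.07 (adjusted p 0.00312). Dcn (decorin, 0.03), Mgp (matrix Gla protein, 0.12) and Thbs2 (thrombospondin 2, also matricellular, -0.03) did not pass the test.

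Of the enzymes known to cleave osteopontin, modify it or crosslink it, 2 of 23 could be tested, and 1 of these, Mmp12, only because the K-line arrays detected it. Mmp12, the metalloelastase of macrophages, had log2 levels of 6.03, 7.67 and 7.54 on K-line arrays 3, 5 and 6 and was below background on all 6 others. The difference was 2.39 (standard error 0.33, adjusted p 5.97e-04), at least 3.82-fold, and array 3 was the lowest K-line array here as for Spp1. Ctsb, the lysosomal protease cathepsin B, rose by 0.40 (adjusted p 0.00854), while its dimmer second probe differed by 0.12 (adjusted p 0.406).

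Of 14 transcription regulators reported at the Spp1 gene 5 were higher and 1 lower, with a median difference of 0.08. All named genes were called higher in 13.4% and lower in 12.3% of cases. With median scaling or in the authors' values 6 regulators rose and none fell, and with slides normalized alone 7 rose and none fell. Junb, an AP-1 subunit, had log2 levels of 7.33, 7.66 and 7.24 in control, 7.21, 7.32 and 7.20 in N-line and 8.67, 8.80 and 8.95 in K-line arrays. It rose by 1.39 in K-line hearts (standard error 0.12, adjusted p 3.44e-05), and Fosl2, another AP-1 subunit, by 0.51 (adjusted p 0.00718). Runx1, a member of the RUNX family, was detected on the K-line arrays alone and entered the test through them, so that 4 of the other 13 rose. It was 0.81 higher there (at least 1.33-fold, adjusted p 0.0161), and 0.78 without control array 3 (adjusted p 0.0504). Sp1 (0.52, adjusted p 0.0281) and Gata4 (0.46, adjusted p 0.0432) were called, but neither passed when certain single arrays were left out. For Sp1 these were control 1 or 2 and K-line 5 or 6 (adjusted p from 0.0732 to 0.0961), and for Gata4 control 1 or 2, K-line 3 or 6 and N-line 3 (from 0.0552 to 0.152). Nfatc1, the target of calcineurin that drives osteoclast genes, fell by 0.54 (adjusted p 0.00817), a call that ended with median scaling, with slides normalized alone and in the authors' values (-0.40, -0.32 and -0.32, adjusted p 0.0733, 0.0588 and 0.0904). Ets2 (0.15), Smad4 (0.01) and Klf4 (-0.23) did not pass, and the probes of Runx2, Hif1a, Myc and Esrrg were detected on no array.

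Of the genes that carry the signal from osteopontin receptors into the cell, 3 of 10 rose and none fell, a share near that of all named genes called (25.7%). With median scaling 6 rose, and with slides normalized alone or in the authors' values 8. Ppp3ca, the catalytic subunit of calcineurin, rose by 0.49 (adjusted p 0.00304). Pik3cg, a phosphoinositide 3-kinase of leukocytes, rose by 0.93 (adjusted p 0.0236), which was not called without control 2 or 3 or K-line 5 or 6 (adjusted p from 0.0727 to 0.0828). Rhoa, a switch of the actin skeleton, was called at 0.28 (adjusted p 0.0497) and missed the threshold whichever of the 9 arrays was left out (adjusted p from 0.0518 to 0.158). Akt2 (-0.07) and Ilk (0.15) did not pass the test, and the dim second probe of Akt2 fell by 0.51 (adjusted p 0.0188).

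Among 8 upstream signals known to raise osteopontin 3 rose and 1 fell, while 13.4% of all named genes were called higher and 12.3% lower. With median scaling or in the authors' values 3 rose and none fell, and with slides normalized alone 5 rose and none fell. Ccl2, the chemokine that draws monocytes, had log2 levels of 5.04, 5.67 and 5.35 in control, 5.38, 5.56 and 5.52 in N-line and 7.43, 7.48 and 7.04 in K-line arrays. Its rise of 1.96 in K-line hearts (standard error 0.16, adjusted p 2.15e-05) was the largest of the list. Tgfbr1, a receptor of TGF-beta, rose by 0.78 (adjusted p 5.80e-04) and Igf1, insulin-like growth factor 1, by 0.60 (adjusted p 0.00293). Tgfb3 fell by 0.45 (adjusted p 0.00547), which was not called with median scaling, slides normalized alone or the authors' values (-0.30, -0.23 and -0.22, adjusted p 0.127, 0.0777 and 0.113). Tgfb2 (0.42), Pdgfa (0.17) and Ace (-0.01) did not pass.

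In N-line against control hearts none of the same 43 genes was called by limma, and 6 had an unadjusted p under 0.05. Over all tested probes 0.929% were called, 0.345% higher and 0.584% lower (183 probes, with 2320 at an unadjusted p under 0.05). Over all named genes 1.08% were called, 0.39% higher and 0.693% lower. The median difference of the 43 genes was 0.00, and their differences ran from -0.53 to 0.41. Nfatc1 was at the lower end (-0.53, adjusted p 0.0704), and it was called with no background correction (adjusted p 0.0409), with an offset of 50 (0.0473), with an intensity trend (0.0399) and without control array 3 (0.0299). Spp1, at 2.40, lay outside the range of all the pathway genes measured.

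K-line against N-line hearts gave a picture like that against control for the pathway, with 17 of 43 genes higher and 1 lower, against 24.2% of all tested probes called (12.1% higher and 12.2% lower) and 25% of named genes (14.2% higher and 10.8% lower). The median of the 43 was 0.24. Without the 4 genes tested only through the K-line arrays it was 14 higher and 1 lower of 39. Gpnmb (4.0, adjusted p 1.24e-08) and Postn (1.06, adjusted p 0.00335) rose here too, and Mmp12, below background on all N-line arrays, was at least 3.95-fold higher (adjusted p 0.00112). These 2 comparisons share the K-line arrays.

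**Figure D3:**
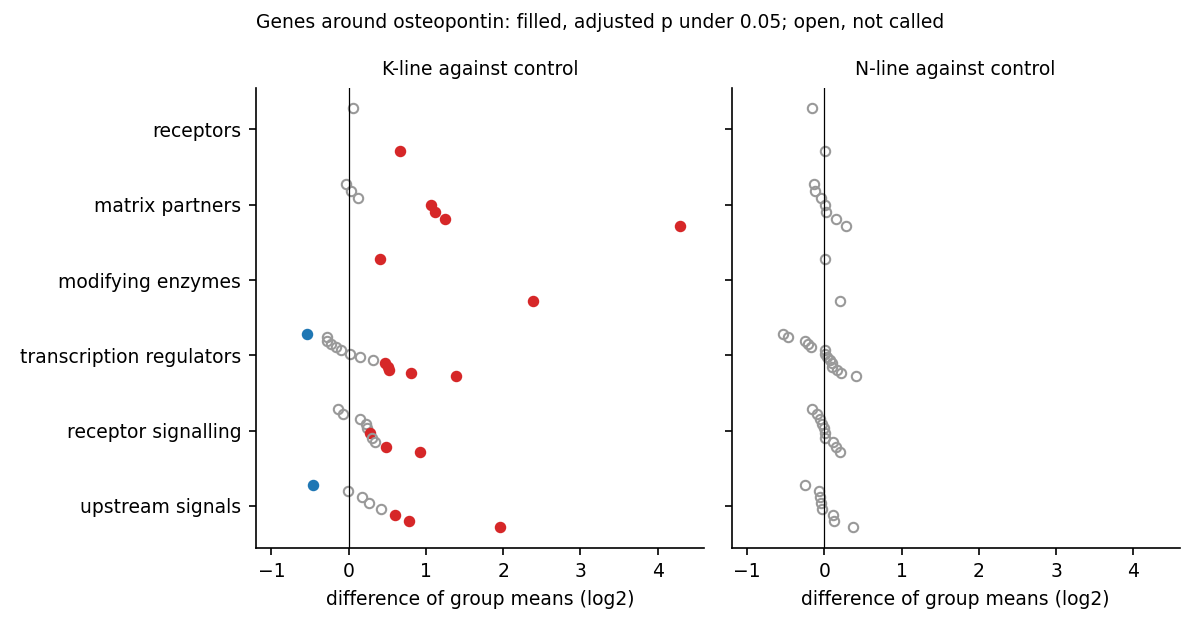
Difference of group means on the log2 scale (horizontal axis) for the 43 tested genes around osteopontin, by role, in K-line against control (left) and N-line against control (right), with filled points for an adjusted p under 0.05. In K-line hearts 18 genes are called higher and 2 lower, and in N-line hearts none is called.

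Macrophages are a main source of osteopontin in injured tissue, so their markers are set beside Spp1. In K-line against control hearts 9 of 9 tested macrophage and leukocyte markers rose, with a median difference of 1.53. Over all named genes 25.7% were called in this comparison, 13.4% higher and 12.3% lower. Lyz2 (lysozyme) rose by 2.89, Cd68 by 1.85, the complement gene C1qb by 1.53, and Csf1r (the receptor of macrophage growth factor) by 1.37. Ptprc, the pan-leukocyte antigen CD45, was below background in control hearts and at least 1.99-fold higher in K-line hearts. Ptprc and Lyz1 were tested only through the K-line arrays, and of the other 7 markers 7 rose, with a median of 1.53. The call of Lyz1 (1.64) ended without control 1 or 3 or K-line 5 or 6 (adjusted p from 0.0677 to 0.0923). The probe of Itgam was detected on 0 arrays.

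Genes of activated or lipid-handling macrophages overlap the lists above in Gpnmb, Mmp12 and Ctsb. Of 8 tested 7 rose, with a median of 1.64, among them the receptor Clec7a (2.34), while 13.4% of all named genes were called higher. This list was drawn up with earlier results of these data known, so its count and median are a description. Cd72 (at least 7.29-fold) and Mmp12 were detected on K-line arrays alone and entered the test through them, and of the other 6 genes 5 rose, with a median of 0.67. The call of Apoe (0.39) ended without control 1 or 3, K-line 5 or any N-line array (adjusted p from 0.0574 to 0.165).

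The summed intensity of the 9 macrophage markers was 1830, 1692 and 1718 on the control arrays. It was 1796, 1833 and 1745 on N-line arrays 2, 3 and 4, and 4847, 8671 and 7637 on K-line arrays 3, 5 and 6. The N-line sums thus lay almost wholly within the control range while the Spp1 levels of these groups did not overlap. Dim markers add little to these sums. Among them Ptprc was detected on 0 control and 2 N-line arrays, and Cd68 on 2 control arrays and 1 N-line array. In N-line hearts none of the 9 markers was called by limma, and 0 had an unadjusted p under 0.05, with a median of -0.07. Of the 8 genes of activated macrophages none was called, 2 had an unadjusted p under 0.05, and the median was 0.11. Only 1.08% of all named genes were called in N-line against control hearts, so counts of 0 in lists this short are near that share. Within the K-line group array 3 was lowest for both Spp1 and the macrophage sum, while array 6 was highest for Spp1 and array 5 for the sum. The part of macrophages in the N-line and K-line levels of Spp1 was not tested.

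**Figure D4:**
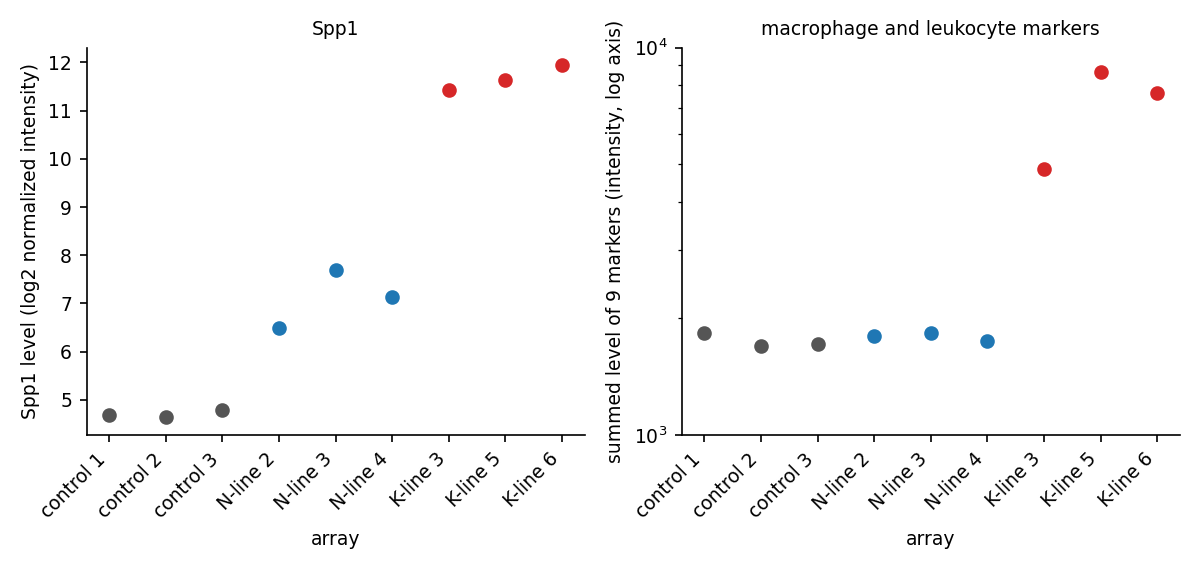
Spp1 level on the log2 scale (left) and summed intensity of 9 macrophage and leukocyte markers (right, log axis) on each of the 9 arrays. Spp1 separates the 3 groups, while the marker sum is 1692 to 1830 in control, 1745 to 1833 in N-line and 4847 to 8671 in K-line arrays.

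Other markers moved less evenly. Of 10 tested fibroblast markers 2 rose and 3 fell in K-line hearts, with a median of 0.09, and of 5 endothelial markers 2 fell. Among all named genes 13.4% were called higher and 12.3% lower in K-line against control hearts. With slides normalized alone 4 fibroblast markers rose and 2 fell, and 1 endothelial marker fell under each of the 3 other scalings. Of 4 atrial and conduction markers 3 fell in K-line hearts, led by Myl7, the atrial myosin light chain, at -7.28. Its log2 levels were 5.22, 8.44 and 4.90 on K-line arrays 3, 5 and 6. Array 6 did not detect Myl7, so the size of its fall depends in part on the offset. Cntn2 fell by 0.98 (adjusted p 0.0123), while its dimmer second probe differed by 0.11 (adjusted p 0.44). Bone makes osteopontin too, but the defining bone gene Bglap (osteocalcin) was detected on 0 arrays. Alpl, the alkaline phosphatase of bone and other tissues, fell by 0.79 in N-line hearts (adjusted p 0.0134), which was not called without any 1 control array or without N-line 2 or 4 (adjusted p from 0.055 to 0.08), nor with the replicate block (0.188). Its K-line difference of -0.36 (adjusted p 0.0461) was -0.22, -0.14 and -0.13 with median scaling, slides normalized alone and the authors' values (adjusted p 0.158, 0.378 and 0.47). It was called with single arrays left out only without K-line 3, and otherwise missed the threshold (adjusted p from 0.0531 to 0.131).

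The genes whose pattern was most like that of Spp1 were ranked by Pearson correlation of log2 levels over the 9 arrays. They were drawn from the 4619 named genes tested, with predicted names left out and the closest probe of each gene taken. The points share their arrays and fall into 3 groups, so the ranking follows the group means to a large degree, and 640 of the 19692 tested probes had a correlation over 0.9. Spp1 was chosen for its pattern over these groups, and the genes below for their likeness or opposition to it on the same arrays. Their order over the groups and their adjusted p-values thus follow from that choice and are given as a description. The closest were Bcl2a1a (0.991), Bcl2a1d (0.987), Irgm2 (0.986), Camta1 (0.985) and Bcl2a1b (0.982), followed by Pcolce, Cotl1, Rps4x, Serpina3g and Clec4n (0.980 to 0.972). The Bcl2a1 genes encode survival factors of leukocytes and are near-identical copies, which their probes may not tell apart. Irgm2 is an interferon-induced GTPase, Pcolce an enhancer of procollagen processing and Clec4n a lectin of myeloid cells.

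Bcl2a1a had log2 levels of 5.61, 5.50 and 5.48 in control, 6.07, 6.53 and 6.47 in N-line and 8.56, 9.04 and 8.93 in K-line arrays, a stepwise order with no overlap like that of Spp1. It rose by 3.32 in K-line hearts (adjusted p 3.31e-07). Its N-line rise of 0.83 had an adjusted p of 0.0285, and was not called with any 1 control array left out, nor without N-line 3 or 4 (0.74 to 0.87, adjusted p from 0.0888 to 0.131). Nor was it called with the replicate block (adjusted p 0.203). Irgm2 was at 7.45, 7.38 and 7.51 in control, 7.76, 8.0 and 7.99 in N-line and 8.39, 8.50 and 8.64 in K-line arrays. It too stepped from group to group, with a rise of 1.07 in K-line hearts (adjusted p 6.29e-05) and a difference of 0.47 in N-line hearts that did not pass (adjusted p 0.0704). Pcolce rose by 0.71 in K-line hearts (adjusted p 5.40e-04) and differed by 0.30 in N-line hearts (adjusted p 0.208).

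The most opposed patterns were those of Acot11 (-0.992), Fitm2, Marchf2, Kcnj15 and Lrig3 (-0.983 to -0.978). Acot11, an acyl-CoA thioesterase, had log2 levels of 9.16, 9.15 and 9.06 in control, 8.87, 8.77 and 8.91 in N-line and 8.19, 8.28 and 8.18 in K-line arrays, the reverse order of Spp1. It fell by 0.91 in K-line hearts (adjusted p 5.53e-05) and differed by -0.28 in N-line hearts (adjusted p 0.194). Fitm2, which acts in lipid droplet formation, fell by 0.86 in K-line hearts (adjusted p 2.18e-04).

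Over the 6 control and N-line arrays alone the closest genes were Bcl2a1d (0.995), Uhrf1 (0.989), Bcl2a1a (0.987), Irgm2 (0.983) and Trim11 (0.982), and 420 tested probes exceeded 0.9. The K-line values do not enter these correlations, but they took part in the normalization and in the choice of tested probes. Since these genes were picked for likeness over the control and N-line arrays, their N-line differences and p-values follow from that choice too. Uhrf1, a factor that maintains DNA methylation, differed by 0.32 in N-line hearts (adjusted p 0.147) and Trim11 by 0.27 (adjusted p 0.398). Bcl2a1d, at 0.81, had an adjusted p of 0.0451 there, which rose to between 0.0677 and 0.175 without any 1 control or N-line array or without K-line 6, and to 0.193 with the replicate block.

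**Figure D5:**
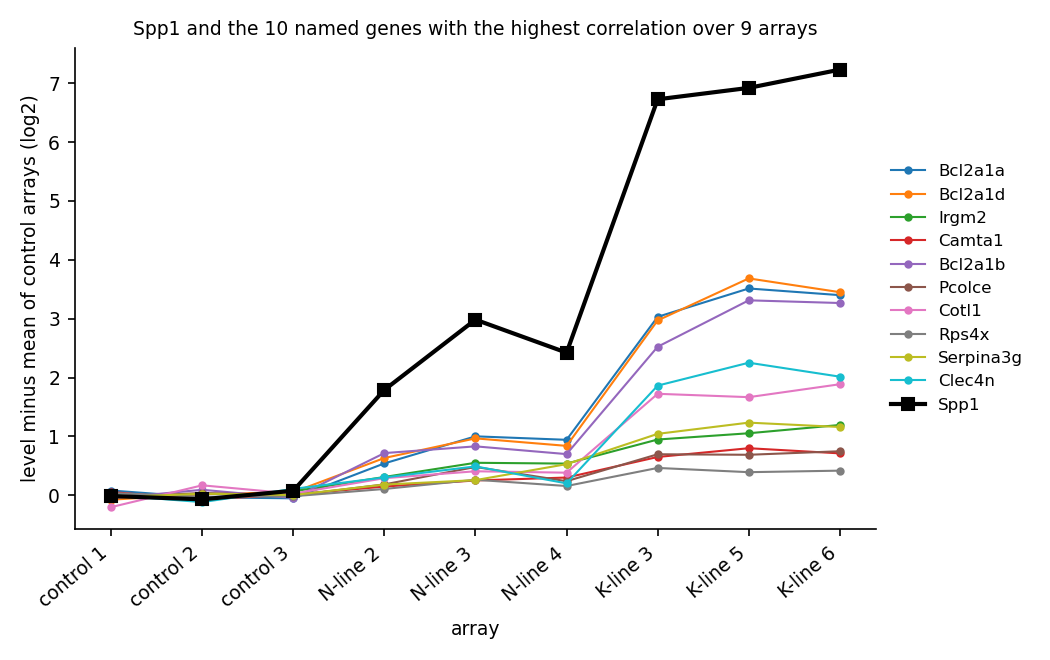
Log2 level on each array minus the mean of the control arrays (vertical axis) for Spp1, in black, and the 10 named genes with the highest correlation with it, with lines only to guide the eye. Spp1 stands 6.96 above control on average in K-line hearts, while the nearest of the 10 genes, Bcl2a1d, stands 3.37 above.

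After Spp1, the largest rises of named genes in K-line against control hearts by the fitted difference were those of Xist (5.78, at least 47.8-fold), Gpnmb (4.28), Alk (4.02, at least 11.4-fold), a receptor kinase, Gdf15 (3.94), a stress-induced cytokine, and Bcl2a1d (3.37). Xist and Alk were below background in control hearts, so their place rests on the offset. In N-line against control hearts the next were sought among called genes detected on all 3 N-line arrays, predicted names left out. They were Erdr1 (1.18), Myo5c (1.16), Klra10 (1.03), Nav3 (0.89) and Bcl2a1a (0.83), all less than the 2.40 of Spp1. Their ranks among all tested probes were 12, 13, 17, 27 and 38. Klra10 was below background in control hearts (at least 1.68-fold), so its place among them is not settled. The calls of Klra10 and Nav3 ended without N-line 4 and with the replicate block. That of Myo5c ended with any 1 control array left out, among other settings. Against N-line hearts the K-line difference of Gdf15 (5.82) exceeded that of Spp1 (4.56), since Gdf15 was lower in N-line than in control hearts (5.11 ± 0.16 against 6.98 ± 0.16, SD, n = 3).

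Spp1 stands in a cluster of bone and tooth matrix genes on its chromosome. Of the 5 genes on either side, which include its relatives Dspp, Dmp1, Ibsp and Mepe and the kidney channel gene Pkd2, only Zfp33b had a named probe, and that was detected on 0 arrays. Whether neighbours of Spp1 moved with it was thus not measured.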

How the data were processed

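RNA of 9 heart samples (100 ng of total RNA each, per the labels) was hybridised to Illumina Mouse-6 v1.1 bead arrays. Per the file headers, the authors took one mean bead intensity for each probe from BeadStudio 2.3.47 and did not normalize it. The deposited tables also give the count of beads and their spread. The deposited detection score is a fraction that nears 1 for bright probes, and the detection p-value was taken as 1 minus this score. The authors' own value table, a linear intensity, served as an alternative. Its Spp1 value was below 0 on control array 2 (-0.80) and above the raw signal on K-line array 3 (3336.5 against 2698.1). It thus cannot be the raw signal less background alone, and must also hold a rescaling of the arrays.

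With limma 3.58.1 in R 4.3.3, background was corrected by normexp, with noise taken from the detection p-values and an offset of 16. All 9 arrays were then quantile normalized together, and log2 was taken. The test was limited to the 19692 probes whose detection p-value was under 0.05 on 3 or more arrays. They entered 1 model with 3 group means (lmFit and eBayes), and p-values were adjusted over all of them by the Benjamini-Hochberg method at 0.05. The script was tested on simulated data. Where a group was below background on every array, the bound "at least N-fold" sets the brighter group against a floor, which on each dim array is the lowest detected signal or, if higher, the probe's own. The floor was taken from levels that hold the offset of 16, so each bound holds for that offset only. Standard errors are those of the fit, and the number of arrays limits the precision. At most 327 raw values were identical between 2 arrays, and each array counts as a sample.

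The arrays name no genes. In 1 class of probe codes 81.1% of 9995 numbers are mouse NCBI gene numbers in RefSeq, against at most 45.9% after shifting them by 1 to 20, and this reading was inferred. It gave, with 9 accessions, 9805 named probes for 8106 genes. In the lists and among all named genes, a gene with several probes was represented by its brightest tested one. For likeness to Spp1 the closest probe of a gene was taken, and for the next largest rises the one with the largest difference. Named are, per list, up to 8 called genes with the largest difference and up to 3 brightest uncalled ones (1 of which is not reported here), then the genes most like Spp1 (10 alike, 5 opposed, 5 over 6 arrays), the 5 next largest rises and the 5 neighbours on each side. Spp1 and all lists were chosen with earlier results of these data known. Alternatives were other background corrections, offsets, scalings, filters, models and sets of arrays. No level of the transgene is reported, and the sources used here give no build for the array.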

Additional observations from a re-analysis of the deposited data

How the results depend on the processing

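The direction of every Spp1 difference was the same under all settings tried, and no single gene reversed. For K-line against control, Spp1 moved from 6.96 to 5.61 with no background correction, 5.77 with an offset of 50, 8.19 with an offset of 1 and 7.95 in the authors' values, and was 6.82 to 7.08 with single arrays left out. For N-line against control it moved from 2.40 to 1.49, 1.53, 3.46 and 2.99 under the same settings, and was 2.11 to 2.70 with single arrays left out. The count of probes called in N-line against control, 183, was 279 with no background correction, 109 with median scaling, 314 with only the groups compared, 308 with an intensity trend and 25 to 289 with single arrays left out (25 without N-line 4, 48 without control 1). In K-line against N-line it was 4774, and 3044 to 4780 with single arrays left out (3044 without N-line 2). The higher share of K-line against N-line calls was 49.8%, but 76.6% with median scaling, 82.1% with slides normalized alone and 85.9% in the authors' values. Pathway genes called in N-line against control were 0, but 1 (Nfatc1) with no background correction, an offset of 50 or an intensity trend, and 0 to 1 with single arrays left out. Of the 10 genes most like Spp1, 5 remained with median scaling and 2 by Spearman correlation. Of 108 tests of single genes 27 lost their call under at least 1 setting. Control and N-line arrays share replicate numbers 2 and 3, whose deviations correlated at 0.22 and 0.11, and with 2 pairs and no label that ties them the arrays share only a number. With the replicate block, 16 probes were called and the Spp1 difference was 2.38. Spp1 lay below background in controls, which limits its differences from control to bounds that depend on the background setting.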
